A study of Mus musculus with 8 samples.

Results

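Podocytes are the epithelial cells that wrap the capillaries of the kidney glomerulus, and their interlocking foot processes carry the slit diaphragm, the last barrier of the blood filter. A small set of transcription factors sets up and keeps this cell type, among them *Wt1*, *Tcf21*, *Foxc1* and *Foxc2*, and in the adult kidney *Wt1* is largely restricted to podocytes. Foot process proteins such as nephrin (*Nphs1*), podocalyxin (*Podxl*), the receptor phosphatase GLEPP1 (*Ptpro*) and synaptopodin (*Synpo*) are standard markers of the cell. The genes described here are these 8, and all probes with their symbols in the platform's annotation were taken. Of these, 6 had a probe, 7 probes in all of the 25697 on the array for 16593 named genes; *Nphs1* and *Synpo* were not analysed here. The genes were picked with the comparison of the genotypes already known, so their differences between genotypes are given as a description. Where the text says that one of them was called in the fit across all probes, this supports nothing.

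Whole kidney RNA came from 4 wild type mice and 4 mice homozygous for *Scube3* N294K, with 1 array per mouse. All were males of the C3HeB/FeJ strain, aged 29 weeks. *Scube3* encodes a secreted protein of the cell surface, and N294K is a missense change from a line made by ENU mutagenesis. Another ENU variant of this 1 line could be shared by all mutant mice if it lies close to *Scube3*. Exome sequencing in the paper named *Scube3* as the only candidate gene in the mapped region. In whole kidney RNA, fewer podocytes, less RNA per podocyte and a change in other cells that express the gene cannot be told apart. Levels below are log2 intensities after background correction and quantile normalization. A probe counted as above background in a mouse at a detection p under 0.05, and the lowest level of any such probe was 4.86 to 4.96, depending on the array.

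The arrays were alike in brightness, with a median scanned intensity of 127 to 139 and 12602 to 13127 probes above background. The first principal component, with 41.6% of the variance, separated the mutant from the wild type mice. The brighter *Scube3* probe was at 5.38 in wild type and 5.50 in mutant mice (difference 0.12, SE 0.16), which does not check the labels because a missense change leaves the transcript in place. None of the 8 genes lies on chromosome 17, where *Scube3* is. Of the 12914 probes above background on at least 4 arrays, 1149 were lower and 1011 higher in mutant mice at an adjusted p under 0.05 in limma, and the median difference over all of them was 0.01.

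All 3 transcription factor genes that could be measured were lower in the kidneys of mutant mice, and so was *Ptpro*, whereas the mice overlapped in *Podxl*. In fold terms the mutant mean was 0.728 of the wild type mean for *Wt1*, 0.579 for *Tcf21*, 0.545 for *Foxc1*, 0.701 for *Ptpro* and 0.819 for *Podxl*. Of the 8 genes 5 were above background, and 4 of these 5 were called lower at an adjusted p under 0.05, where 8.90% of all probes tested were called lower and 7.83% higher (16.7% in all). The same 4 had all mutant mice below all wild type mice, which held for 11.8% of all probes tested (the reverse order held for 12%). Since these values led to the choice of the genes, nothing is read from these counts.

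**Figure D1:**
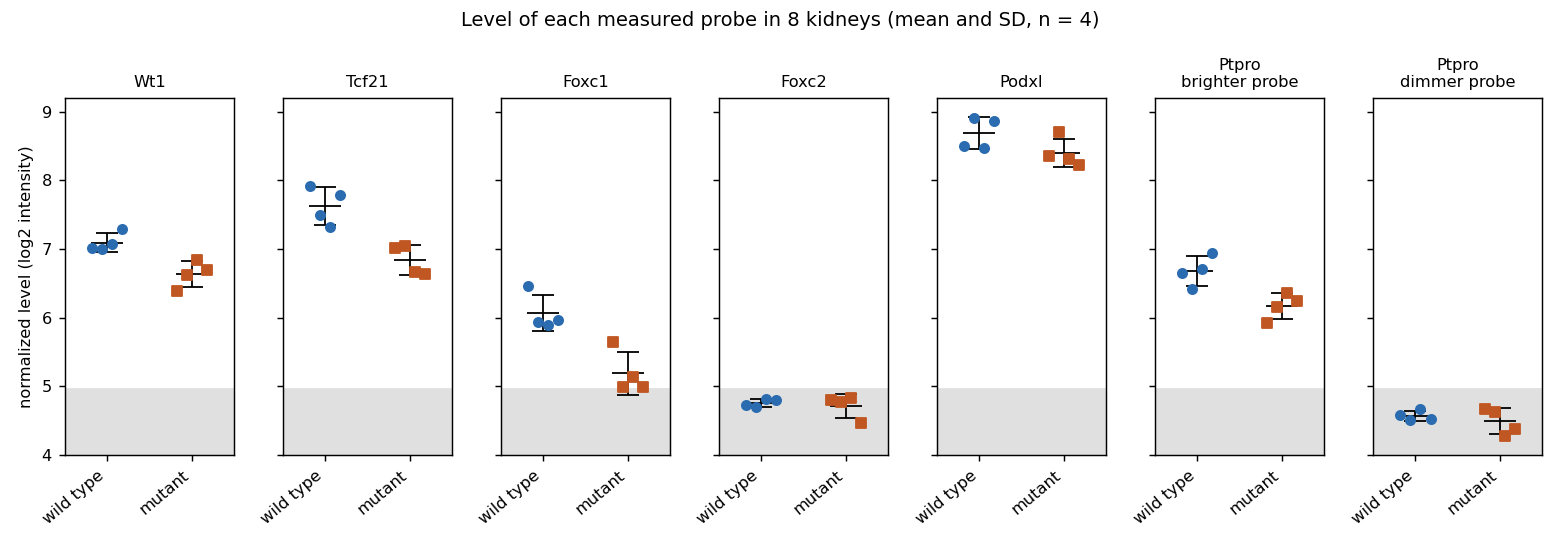
Normalized level (log2 intensity, vertical axis) of each of the 7 probes in the 4 wild type mice (blue circles) and the 4 mutant mice (orange squares), with the mean and SD of each genotype; in the grey band, levels lie under the lowest level above background of at least 1 array. The genotypes do not overlap for *Wt1*, *Tcf21*, *Foxc1* and the brighter *Ptpro* probe, they overlap for *Podxl*, and *Foxc2* and the dimmer *Ptpro* probe lie in the band.

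*Wt1* encodes the zinc finger factor of the Wilms tumor locus, which podocytes need both to form and to persist (chromosome 2, 105126529 to 105173614, GRCm38.p6). Its levels were 7.02, 7.00, 7.07 and 7.29 in wild type mice 1 to 4 and 6.39, 6.62, 6.84 and 6.69 in mutant mice 1 to 4. The highest mutant mouse, number 3, was thus still below the lowest wild type mouse, number 2. The means were 7.09 ± 0.13 (SD, n = 4) and 6.64 ± 0.18 (SD, n = 4), a difference of -0.46 (SE 0.10). Before any correction, the mean scanned intensity was 252 in wild type and 197 in mutant mice.

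*Tcf21* encodes a basic helix-loop-helix factor that podocytes and kidney stromal cells express (chromosome 10, 22817263 to 22820143). Levels in wild type mice were 7.91, 7.50, 7.32 and 7.78, and levels in mutant mice were 7.01, 7.04, 6.67 and 6.64. Mutant mice 1 and 2 were close to each other, as were mice 3 and 4, and all were below wild type mouse 3, the lowest of its genotype. The means of 7.63 ± 0.27 and 6.84 ± 0.21 (SD, n = 4 each) differed by -0.79 (SE 0.14), and the scanned intensity went from 319 to 210.

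*Foxc1* encodes a forkhead factor that acts in kidney development and in podocytes (chromosome 13, 31806646 to 31810635). Its levels were 6.47, 5.94, 5.90 and 5.96 in wild type mice and 5.65, 4.99, 5.13 and 5.00 in mutant mice. Mouse 1 was the highest of both genotypes, and the other 3 mutant mice lay just over the lowest level above background. Its means were 6.07 ± 0.27 and 5.19 ± 0.31 (SD, n = 4 each), a difference of -0.88 (SE 0.17), larger in size than that of *Tcf21*. The scanned means were 178 and 138, and the size of the difference moved with the treatment of background. It was -0.28 without background correction and -1.35 in the authors' normalized intensities. Without background correction and with an offset of 50, the difference of *Tcf21* (-0.47 and -0.64) was larger in size than that of *Foxc1* (-0.28 and -0.52).

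*Foxc2* encodes the closest relative of *Foxc1* (chromosome 8, 121116171 to 121118895). Its probe was above background in no mouse, at 4.73, 4.69, 4.81 and 4.80 in wild type and 4.80, 4.77, 4.83 and 4.46 in mutant mice. No difference between genotypes could be measured at this signal, and none was tested.

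*Ptpro* encodes the receptor tyrosine phosphatase GLEPP1 of the podocyte surface (chromosome 6, 137252299 to 137464634) and had 2 probes. The brighter one was at 6.65, 6.42, 6.71 and 6.94 in wild type mice and at 5.93, 6.15, 6.36 and 6.25 in mutant mice. The genotypes were separated by a narrow gap, between mutant mouse 3 and wild type mouse 2. The means were 6.68 ± 0.21 and 6.17 ± 0.18 (SD, n = 4 each), a difference of -0.51 (SE 0.12). Without wild type replicate 1 (-0.52) or mutant replicate 2 (-0.51), it was no longer called. The dimmer probe, above background in no mouse, had means of 4.57 and 4.49 and was not tested.

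*Podxl* encodes podocalyxin, the charged sialomucin of the foot process surface, which vascular endothelium also expresses (chromosome 6, 31519493 to 31563937). Its levels were 8.51, 8.90, 8.47 and 8.87 in wild type mice and 8.35, 8.70, 8.32 and 8.22 in mutant mice. Wild type mice 2 and 4 were high, and mutant mouse 2 was above wild type mice 1 and 3. Its means of 8.69 ± 0.23 and 8.40 ± 0.21 (SD, n = 4 each) differed by -0.29 (SE 0.13), and *Podxl* was not called. The scanned intensity was 547 and 423.

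The differences did not change direction in any of 16 other treatments of the data, of which 8 left out 1 mouse each. Over these, the difference ran from -0.55 to -0.24 for *Wt1*, from -0.89 to -0.47 for *Tcf21*, from -1.35 to -0.28 for *Foxc1*, from -0.63 to -0.23 for *Ptpro* and from -0.39 to -0.22 for *Podxl*. On the authors' normalized scale, with a floor of 16, the mutant mean was 1.85-fold lower for *Tcf21*, 2.56-fold for *Foxc1*, 1.45-fold for *Wt1*, 1.54-fold for *Ptpro* and 1.23-fold for *Podxl*. These are further values of the same contrast and the same mice, not independent support.

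**Figure D2:**
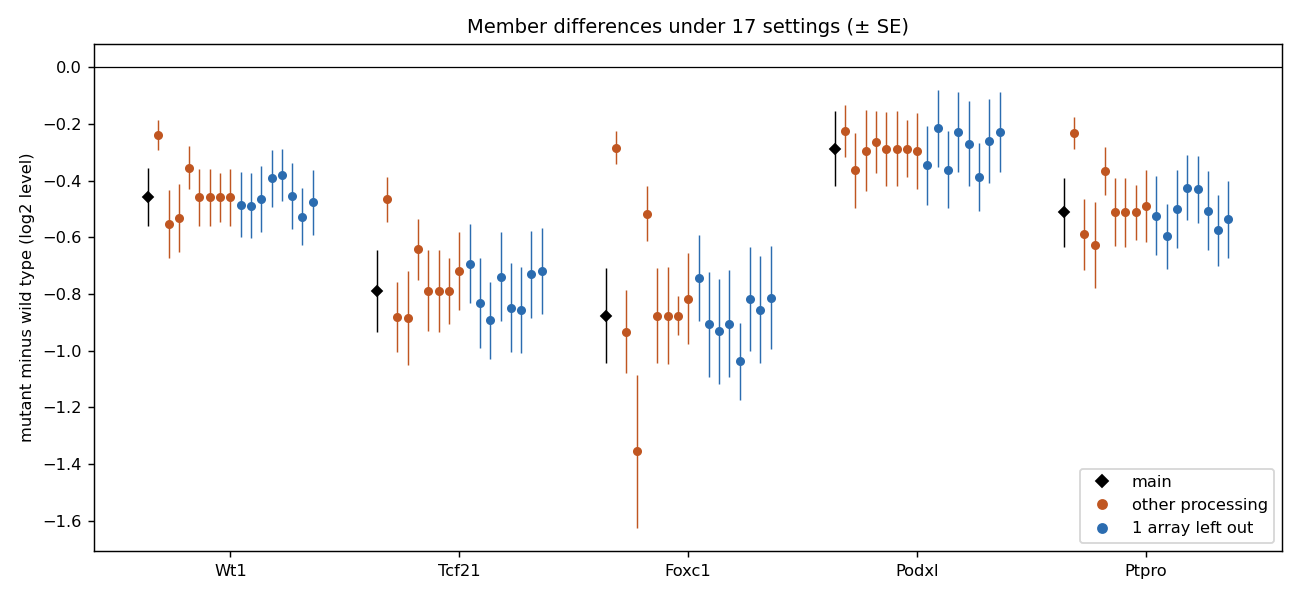
Difference between genotypes (mutant minus wild type, log2 level, vertical axis, bars are SE) of the 5 genes above background in the limma comparison reported here (black diamonds), with other processing (orange) and with 1 array left out (blue). All points lie below 0, and *Foxc1* spreads the most, from -1.35 to -0.28.

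Mice of 1 genotype differed from each other in these genes. This spread enters the test behind the calls known when the genes were picked, so it too is given as a description. *Wt1* and *Ptpro*, the nearest of all pairs among these genes, moved together from mouse to mouse. In wild type mice both rose in the order 2, 1, 3, 4, and in mutant mice both rose in the order 1, 2, 4, 3. With each gene set to its own genotype mean, the levels of *Wt1* and *Ptpro* differed by a root mean square of 0.0707 over the 8 mice and by at most 0.17 in any mouse. By this measure, chosen after seeing the data, *Wt1* ranked 5 among the 12913 other probes in nearness to *Ptpro*, and *Ptpro* ranked 32 in nearness to *Wt1*. The other pairs were far less alike. Their ranks ran from 1079 (*Tcf21* in nearness to *Foxc1*) to 12743 (*Foxc1* in nearness to *Wt1*). *Tcf21* and *Foxc1* shared their order in the wild type mice only (3, 2, 4, 1), with a root mean square difference of 0.211, and *Tcf21* and *Podxl* in the mutant mice only. The pairs share arrays and normalization, and 4 mice per genotype are too few for a correlation.

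**Figure D3:**
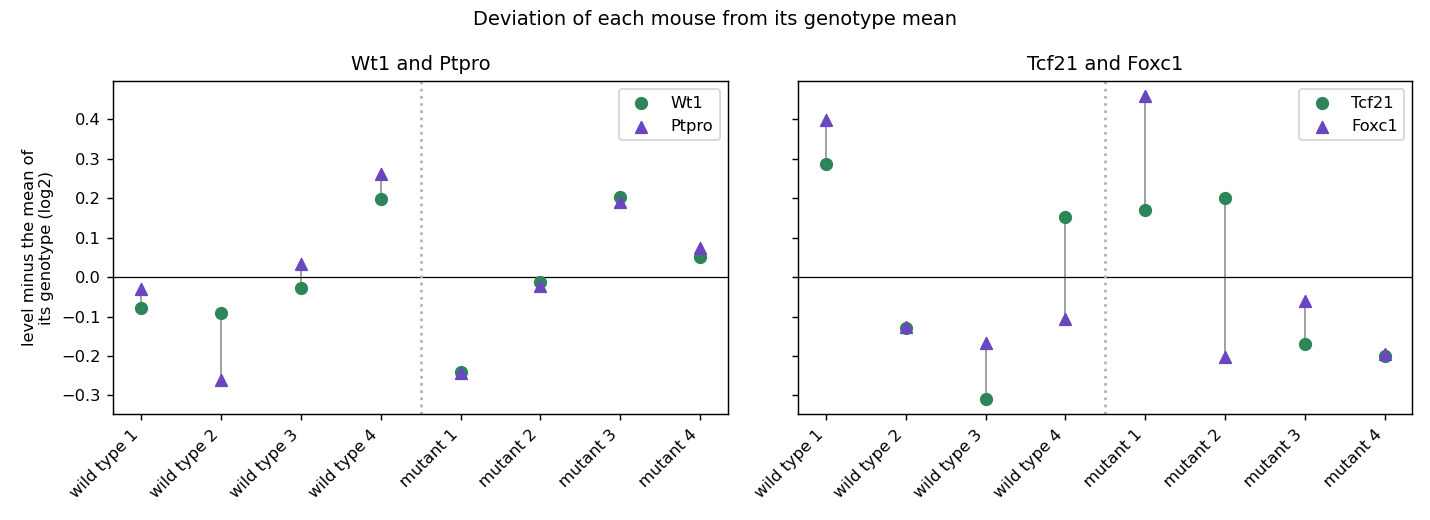
Level of each mouse minus the mean of its genotype (log2, vertical axis) for *Wt1* and *Ptpro* (left) and for *Tcf21* and *Foxc1* (right), by mouse; grey lines join both genes of a mouse. *Wt1* and *Ptpro* lie within 0.17 of each other in all 8 mice, while *Tcf21* and *Foxc1* are up to 0.40 apart.

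Over all 8 mice, with each probe set to its own mean, the genes nearest to *Wt1* were *Usp12* (root mean square difference 0.0475), which encodes a deubiquitinase, *Coq10b* (0.0652) and *Ptpro* (0.0756), where the median over all probes was 0.302. *Usp12* (0.0652) and *Wt1* were also nearest to *Ptpro*, followed by *Rgcc* (0.10). Nearest to *Tcf21* were *Cxcl12* (0.105), which encodes a chemokine, *Dennd2a* (0.127) and *Sgk3* (0.133). Nearest to *Foxc1* were *Rasgrp1* (0.121), *Umod* (0.138, a dimmer probe of the uromodulin gene) and *Pla1a* (0.157). *Podxl* was nearest to *Lrrc66* (0.0837), *Rgmb* (0.0938) and *Pdp1* (0.0946). These distances include the difference between genotypes.

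Of the 3 transcription factor classes among these genes, each reads a known short DNA sequence. Basic helix-loop-helix factors such as Tcf21 bind E-boxes (CANNTG), forkhead factors such as Foxc1 bind GTAAACA or GTAAATA, and Wt1 binds a longer site that contains GTGGGAG. The promoters of *Ptpro*, *Tcf21* and *Foxc1*, 3 of the 4 genes that were lower, are shown to compare them for these letters, searched on both strands in the 250 bases before the gene start (RefSeq, GRCm38.p6). The *Ptpro* promoter lies at chr6:137252049-137252298 on the plus strand, the *Tcf21* promoter at chr10:22820144-22820393 on the minus strand and the *Foxc1* promoter at chr13:31806396-31806645 on the plus strand. Matches are in capitals.
Ptpro: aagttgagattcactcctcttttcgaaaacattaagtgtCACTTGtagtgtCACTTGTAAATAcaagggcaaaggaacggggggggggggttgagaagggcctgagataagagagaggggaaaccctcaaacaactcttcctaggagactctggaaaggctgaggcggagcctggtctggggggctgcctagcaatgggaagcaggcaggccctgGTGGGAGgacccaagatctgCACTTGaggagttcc
Tcf21: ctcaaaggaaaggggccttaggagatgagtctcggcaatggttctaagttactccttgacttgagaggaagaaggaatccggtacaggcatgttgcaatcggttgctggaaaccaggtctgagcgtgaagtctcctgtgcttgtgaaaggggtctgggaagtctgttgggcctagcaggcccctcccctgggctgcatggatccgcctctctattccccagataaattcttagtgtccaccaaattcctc
Foxc1: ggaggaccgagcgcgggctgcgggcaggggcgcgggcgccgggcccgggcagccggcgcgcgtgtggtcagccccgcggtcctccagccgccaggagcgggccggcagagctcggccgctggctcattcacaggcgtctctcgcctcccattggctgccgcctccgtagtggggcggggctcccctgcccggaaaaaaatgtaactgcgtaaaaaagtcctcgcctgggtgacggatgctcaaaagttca
The *Ptpro* promoter held the E-box CACTTG starting 211, 199 and 15 bases before the gene start, GTAAATA at 194, which shares its first base with the second E-box, and GTGGGAG at 35. The *Tcf21* and *Foxc1* windows held none of the 3 motifs. Over 32851 mouse promoters of the same length, 66.2% held an E-box, 5.76% a forkhead match and 8.25% GTGGGAG. The *Foxc1* promoter was rich in G and C (70.8%, against 53.6% for *Ptpro* and a median of 52.4%). The motifs were chosen after the promoters had been seen, and a match in letters is a description only.

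Beyond the 8 genes, 5 lists of podocyte genes, a list of partners of Wt1 and Tcf21 and a list of other forkhead genes were examined. These 7 lists held 126 genes, 110 with a probe and 74 that passed the filter on background. In limma 7 of the 74 fell in mutant mice, 1 rose and 66 did not pass, so 9.46% were called lower and 1.35% higher, against 7.86% and 8.39% of all genes by their brightest probe (16.2% in all). The median difference of the 74 was -0.07. All lists, here and below, were chosen with earlier results of these data known, so their counts and adjusted p-values are a description. Uncalled genes were named for a high mean, such as *Arhgap24* (12.1), *Htra1* (10.7), *Ezr* (10.6) and *Vegfa* (10.5). These means were above those of *Podxl* (8.54) and *Ptpro* (6.43). Which cells of the whole kidney gave these signals was not tested, so the values are not readings of podocytes alone. With any probe of a gene in place of its brightest, 12 genes were called: *Arhgap24*, *Vegfa* and *Zhx1* were then lower and *Pard6a* higher besides the 8.

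**Figure D4:**
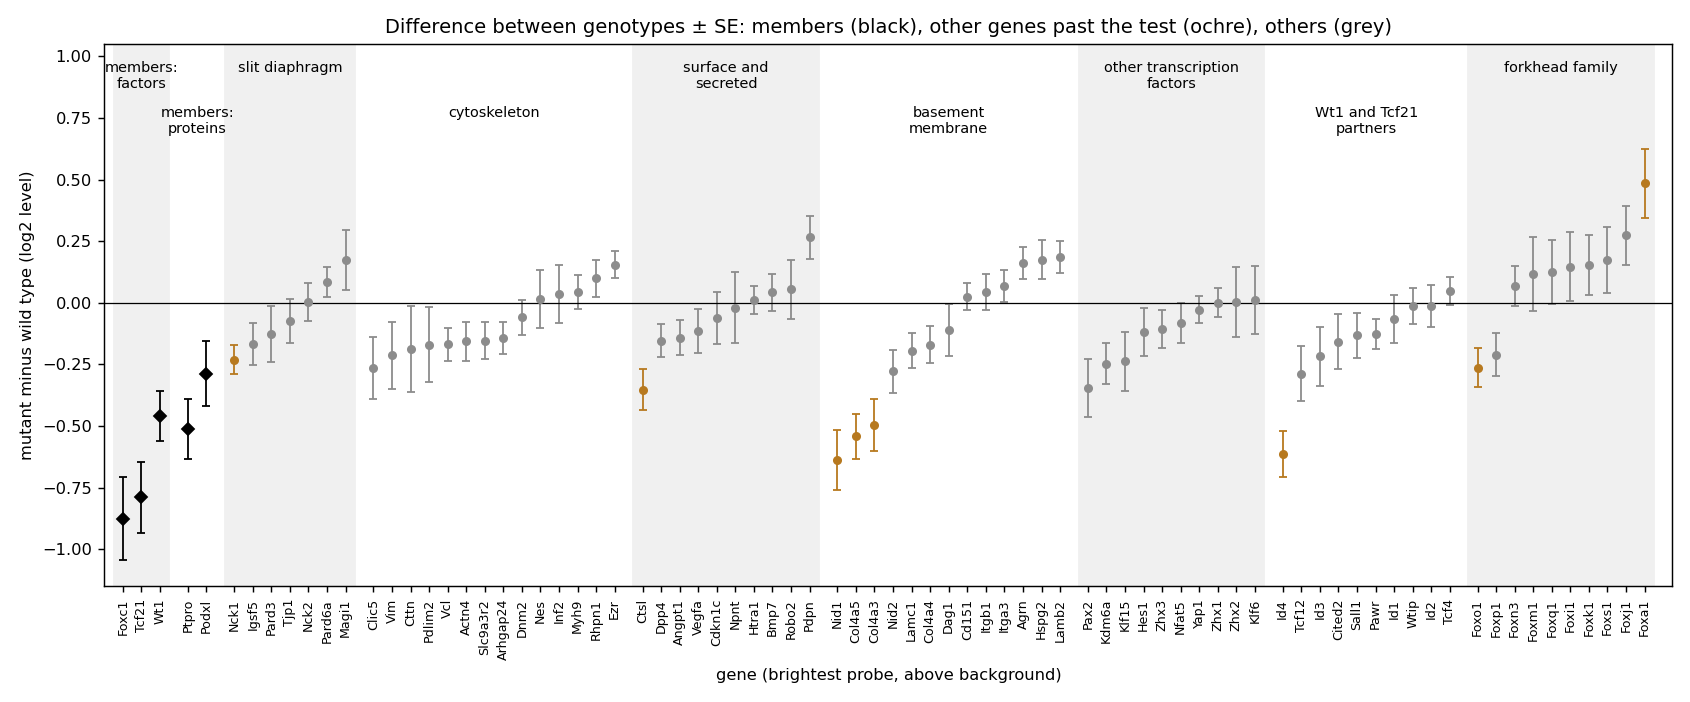
Difference between genotypes (mutant minus wild type, log2 level, vertical axis, bars are SE) for the genes described here (black diamonds) and the 74 other genes above background, grouped by list (horizontal axis), with those past the limma test in ochre. *Nid1*, *Col4a5*, *Col4a3* and *Id4* are the lowest of the 74, and *Foxa1* is the highest.

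The basement membrane that podocytes build with endothelial cells held 3 of the 7 genes that fell, of 13 measured (median difference -0.11). *Col4a3*, a chain of the adult collagen IV network, fell from 9.59 to 9.10 (-0.49, SE 0.11, adjusted p = 0.0156 from limma). *Col4a5*, its partner chain, fell from 7.91 to 7.37 (-0.54, SE 0.09, adjusted p = 0.00766), and *Nid1*, which encodes the linker nidogen 1, from 7.86 to 7.23 (-0.64, SE 0.12, adjusted p = 0.0111). The third chain of that network, *Col4a4*, had a difference of -0.17 (SE 0.08) and did not pass. *Agrn* (0.16, SE 0.07) and *Cd151* (0.03, SE 0.05), the brightest genes of the list that did not pass, had small positive differences by their brightest probe. The dimmer *Cd151* probes had small negative differences (-0.06, SE 0.06, and -0.09, SE 0.08) and were not called either.

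Of the slit diaphragm and its adaptors, 7 of 19 genes were above background, and *Nck1*, whose product links nephrin to actin, fell from 7.85 to 7.62 (-0.23, SE 0.06, adjusted p = 0.0274 from limma). The call on *Nck1* was lost in 7 of the 16 other treatments. Its paralog *Nck2* had a difference of 0.00 (SE 0.08), and *Igsf5* of -0.17 (SE 0.08). The polarity gene *Pard6a* differed by 0.08 (SE 0.06) by its brightest probe and was called higher by a dimmer one (0.31, SE 0.07, adjusted p = 0.0211). The median of the 7 was -0.07, and *Kirrel* and *Cd2ap* were not above background. None of 14 cytoskeletal genes passed in limma (median -0.15), although 2 had an unadjusted p under 0.05, and SAM called none. Among them were *Arhgap24*, a Rac regulator of podocytes, at -0.14 (SE 0.07), and *Ezr*, which ties podocalyxin to actin, at 0.15 (SE 0.05). A dimmer *Arhgap24* probe was called lower (-0.46, SE 0.12, adjusted p = 0.0297).

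Among 10 surface and secreted products, the protease gene *Ctsl* fell from 7.11 to 6.75 (-0.35, SE 0.08, adjusted p = 0.0212 from limma). It was no longer called without wild type replicate 2 (-0.32, adjusted p = 0.0547) or mutant replicate 2 (-0.34, adjusted p = 0.0516). *Vegfa*, the podocyte signal to glomerular endothelium, had a difference of -0.11 (SE 0.09) by its brightest probe and was called lower by a dimmer one (-0.37, SE 0.08, adjusted p = 0.0182). *Htra1* differed by 0.01 (SE 0.06), and the median of the list was -0.04.

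By their brightest probe, none of 10 other podocyte regulators of transcription passed in limma (median -0.09). Of these, 2 had an unadjusted p under 0.05 in limma (*Pax2* and *Kdm6a*, which encodes a histone demethylase), and SAM called none. *Zhx1*, which encodes a zinc finger and homeobox factor, differed by 0.00 (SE 0.06) by its brightest probe, but its other 2 probes were called lower (-0.32, SE 0.09, adjusted p = 0.0412, and -0.30, SE 0.08, adjusted p = 0.0336). *Nfat5* differed by -0.08 (SE 0.08) and *Yap1* by -0.03 (SE 0.05). Of 10 partners of Wt1 and Tcf21, *Id4*, which encodes an inhibitor of helix-loop-helix factors, was above background in wild type mice and in no mutant mouse. It was at least 1.32-fold lower in mutant mice (levels 5.31 and 4.70). It passed the filter on background through the wild type mice alone, and apart from it 6 listed genes fell. Tested over all 25697 probes with no filter, its adjusted p was 0.00808 in limma. It was not tested at a detection p under 0.01 or without any 1 wild type mouse. The bound takes the higher of the lowest level above background and the gene's own level on each mutant array. The helix-loop-helix partner *Tcf4* differed by 0.05 (SE 0.06) and *Id2* by -0.01 (SE 0.09).

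Of 10 other forkhead genes, *Foxo1*, a factor of insulin signaling, fell from 8.78 to 8.52 (-0.26, SE 0.08, adjusted p = 0.0497 from limma), and *Foxa1* rose from 5.26 to 5.74 (0.49, SE 0.14, adjusted p = 0.0417). These calls were lost in 10 and 11 of the 16 other treatments. *Foxn3* (0.07, SE 0.08) and *Foxq1* (0.12, SE 0.13) did not pass, and the list median was 0.14.

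Markers of other kidney cells were measured beside the podocyte genes. Of all genes by their brightest probe, 7.86% were called lower and 8.39% higher (16.2% in all). In lists this short, 1 or 2 calls can lie near that share, and the counts are a description. Of 12 endothelial genes 2 fell, *Cdh5* and *Ehd3*, an endocytosis gene of glomerular endothelium (-0.62, SE 0.11, adjusted p = 0.00798 from limma). The summed linear level of the 12 was 4881 to 6197 in wild type and 4571 to 5218 in mutant mice. In the mesangial list 1 of 6 fell, *Cspg4*, and the sum ranged from 1298 to 1638 and from 1359 to 1549. This sum consists mostly of *Acta2*, which was not called by its brightest probe (0.07, SE 0.10). Of its 4 probes, 1 was called lower. Of 6 stromal genes 1 fell, *Col15a1*, with sums of 1290 to 1749 and 1238 to 1398. Of 5 genes listed for the parietal epithelium 2 rose, *Pax8* and *Krt18*, and which kidney cells gave their signals was not tested. The sums of 1811 to 2064 and 2104 to 2142 consist mostly of *Krt8*, which overlapped between genotypes and was not called (0.09, SE 0.06). Of these lists the thick ascending limb had the largest share called, with 4 of 6 genes lower, a median difference of -0.45 and sums of 16301 to 19236 and 10103 to 12744. Of 8 distal and collecting duct genes 2 rose (sums 7551 to 8567 and 8873 to 9955), 1 of 7 proximal tubule genes fell, and none of 2 mesothelial, 4 leukocyte and 3 red cell genes passed in limma. At an unadjusted p under 0.05 these last lists held 0, 1 and 0 genes, and SAM called none of them. The part of these cell types in the levels of *Wt1*, *Tcf21*, *Foxc1* and *Ptpro* was not tested.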

How the data were processed

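Kidney RNA of 4 wild type and 4 homozygous mutant male mice was hybridized to Illumina Mouse Ref8 v2.0 BeadChips, 1 array per mouse. The authors deposited the scanned intensity of each probe, on a linear scale and without normalization, with a detection p-value from GenomeStudio. The authors' intensity after cubic spline normalization (GenomeStudio 2011.1) was deposited too and entered an alternative and SAM. Its columns had the probe order of the scanned data of each mouse.

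Background was corrected with neqc (limma 3.58.1, R 4.3.3), which fits normexp with the help of the detection p-values, adds an offset (16), quantile-normalizes and takes log2. An offset compresses differences of dim probes. A probe was kept if above background (detection p under 0.05) on 4 or more of the 8 arrays (12914, 50.3%), and genotypes were compared with lmFit and eBayes with genotype as the only term. Benjamini-Hochberg adjustment ran over all kept probes, and calls were made under 0.05. The brightest probe over all 8 arrays stood for a gene. Probe symbols were matched by gene number to a RefSeq table (GRCm38.p6), with 23962 of 23978 named probes found. The labels do not say whether the mice were of separate litters, and p-values measure only the spread between these mice. Precision is limited by the number of arrays (median standard error 0.0839).

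SAM was rewritten here after its publication and applied to their normalized table with a floor of 16 over all 70 arrangements of the genotypes, at the study's thresholds of an FDR under 6% and a fold change above 1.6. It is an approximation of the software the methods name. Alternatives were no background correction, median scaling, the authors' normalized intensities, an offset of 50, a detection p under 0.01, no filter, the replicate number as a block, array weights and leaving out each mouse.

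The 8 genes and all lists were chosen with earlier results of these data known. From each list of podocyte genes, the text names up to 4 genes called with the largest change and up to 2 not called with the highest mean, and for each of the 5 genes above background the 3 genes with the nearest profile. Names chosen once values had been seen are *Col4a4*, *Pard6a*, *Zhx1*, *Kirrel*, *Cd2ap*, *Pax2*, *Kdm6a*, *Scube3*, the dimmer probes of listed genes and the marker genes. *Podxl* and *Ptpro* served as podocyte markers of the sample and were above background in all mice. The comparison was tested on simulated data of 12914 probes with 50 lowered at each size. The calls recovered 54% of those at 1.3-fold, 90% at 1.6-fold, 96% at 2-fold and 100% at 3-fold, with 7.10% of calls false. All other simulated probes were unchanged, and noise was independent between probes. In the real comparison 2160 probes were called, in both directions, so these rates need not hold there. Promoter sequences are those of RefSeq (GRCm38.p6), in a table that covered 4 of the 8 genes.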

Additional observations from a re-analysis of the deposited data

Results flagged for a closer look

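Of 58 groups of 4 mice, 4 held a mouse far from the other 3, with a gap to the nearest mouse that passed Dixon's critical value, where chance gives about 1 in 20. *Foxc1* was at 6.47 in wild type replicate 1, and the nearest wild type mouse was at 5.96. *Foxc2* was at 4.46 in mutant replicate 4 (nearest 4.77), but the probe was above background in no mouse. *Foxo1* was at 8.57 in wild type replicate 1 (nearest 8.84), and *Foxq1* was at 8.18 in mutant replicate 3 (nearest 7.67). Without wild type replicate 1, the difference in *Foxc1* was -0.74.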

How the results depend on the processing

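Without 1 mouse, limma called 1150 to 1708 probes (2160 with all), 3 to 4 of the 8 genes (4), 4 to 6 genes of the 7 lists (8) and 6 to 12 marker genes (13, an alternative added after seeing the data). The lowest count of probes came without wild type replicate 1. SAM called 234 probes, 2 of the 8 genes and 2 genes of the 7 lists, by its own construction with a fold threshold. Without background correction 15 genes of the 7 lists were called, 10 lower and 5 higher; the cause was not tested. Median scaling moved the share of lower calls from 53.2% to 86.8% and the median of all probes from 0.01 to -0.05.

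The replicate numbers are shared between genotypes, and the labels do not say whether they pair the mice. Deviations of same-numbered mice were at most weakly correlated (r over probes 0.130, -0.0701, -0.0964 and -0.0228). Such values cannot settle whether the mice were paired. With the replicate block, 1352 probes, 5 genes of the 7 lists and 8 marker genes were called. *Nck1*, *Col4a3* (adjusted p = 0.0519 from limma) and *Foxo1* were then no longer called. The same 4 of the 8 genes were called with it. The *Ptpro* difference ran from -0.60 to -0.43 without 1 mouse.

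Some uncalled genes near 0 changed sign. Median scaling gave -0.051 for *Nck2*, -0.030 for *Htra1*, -0.038 for *Cd151* and -0.0093 for *Tcf4*, and array weights gave 0.022 for *Id2*. Without 1 mouse, *Nck2* ran from -0.033 to 0.053, *Htra1* from -0.0083 to 0.034, *Id2* from -0.091 to 0.047 and *Foxq1* from -0.016 to 0.19.

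Signal over background limits what can be said: *Foxc2* and the dimmer *Ptpro* probe were not above background, and the mutant levels of *Foxc1* (detection p 0.00627 to 0.0401) were near it.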
